A study of Mus musculus with 24 samples.

Results

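The 10 genes Dll4, Jag1, Efnb2, Notch1, Notch4, Unc5b, Hey1, Hey2, Gja5 and Gja4, which mark arterial endothelium or carry Notch signalling in it, were followed in yolk sacs and whole embryos of Setd2 mutant mice. They were chosen by name, as the rows whose symbol was listed, and all 10 were found among the 55421 genes of each deposited table. The list was drawn up with earlier results of these data known. Setd2 encodes the histone methyltransferase that places the third methyl group on lysine 36 of histone H3. Messenger RNA was sequenced at embryonic day 9.5 from C57BL/6 mice of a Setd2-null line and of a Setd2 catalytic dead line, here called CD, whose allele by the series title derives from a patient mutation. Each line gave wild-type (WT), heterozygous (HE) and homozygous (HO) groups in both tissues, with 2 libraries a group and 24 libraries in all. The labels name no Cre, treatment or further allele, and they do not say whether a library held 1 animal or several, or whether WT and HO were littermates.

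Arteries are set apart from veins early in development, in part by Notch signalling between neighbouring endothelial cells. A ligand of the Delta or Jagged family on 1 cell binds a Notch receptor on the next, proteases then cut the receptor, and the freed intracellular part binds the DNA-binding protein RBPJ and turns on repressors of the Hey and Hes families. In the yolk sac the endothelium forms a primitive plexus in the mesoderm layer and is remodelled into larger vessels once blood flow begins, and several arterial genes, the connexins among them, are known to respond to flow. None of the 10 genes is confined to arteries: the heart, somites, neural tube or smooth muscle of the embryo also express several of them.

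The connexin genes Gja5 and Gja4 and the ligand Efnb2 were among the genes that fell in homozygous yolk sacs, and Hey2 is the Notch target whose start region held the RBPJ motif, so the promoters of these 4 are shown. RefSeq start regions (GRCm38.p6) were on hand for 9 of the 10 genes, all but Hey1. For Gja5 and Notch1 the RefSeq start used lies inside the span of the gene in the annotation given below. Each sequence is the 250 bases before the RefSeq start, written 5′ to 3′ on the gene's own strand, with capitals for the motifs searched. These were GTGGGAA for RBPJ, ACAAAG for SOX factors and AGGAAG for ETS factors, on both strands, with no overlap between the motifs in the windows shown.
Gja5, chr3:97032152-97032401, plus strand: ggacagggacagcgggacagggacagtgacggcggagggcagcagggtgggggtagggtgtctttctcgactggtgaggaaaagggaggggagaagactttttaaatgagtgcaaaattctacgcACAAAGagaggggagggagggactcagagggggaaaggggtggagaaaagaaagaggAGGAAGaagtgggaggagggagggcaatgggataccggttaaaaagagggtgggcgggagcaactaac
Gja4, chr4:127314040-127314289, minus strand: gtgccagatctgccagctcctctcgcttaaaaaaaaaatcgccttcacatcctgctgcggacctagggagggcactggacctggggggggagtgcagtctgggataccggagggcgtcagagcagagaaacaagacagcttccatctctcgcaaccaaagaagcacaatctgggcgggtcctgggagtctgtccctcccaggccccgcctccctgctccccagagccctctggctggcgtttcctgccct
Efnb2, chr8:8661243-8661492, minus strand: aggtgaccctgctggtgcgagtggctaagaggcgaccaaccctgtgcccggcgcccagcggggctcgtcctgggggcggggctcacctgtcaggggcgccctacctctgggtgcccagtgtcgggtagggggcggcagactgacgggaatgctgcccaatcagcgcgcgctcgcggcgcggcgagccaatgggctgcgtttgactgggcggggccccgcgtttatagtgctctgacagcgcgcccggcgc
Hey2, chr10:30842784-30843033, minus strand: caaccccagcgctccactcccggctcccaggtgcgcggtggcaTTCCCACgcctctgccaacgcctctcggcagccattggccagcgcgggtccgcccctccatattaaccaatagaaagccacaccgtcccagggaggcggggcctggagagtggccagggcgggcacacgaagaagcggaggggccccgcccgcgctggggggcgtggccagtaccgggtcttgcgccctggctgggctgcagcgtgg
The Gja5 window held 1 SOX motif, 125 bases before the start, and 1 ETS motif, 68 bases before it. The Hey2 window held the RBPJ motif on the other strand, 207 bases before the start. The windows of Gja4, Efnb2, Dll4, Jag1, Notch1 and Unc5b held none of these letters, and that of Notch4 held 3 ETS motifs. Over all 32851 start windows of the same length, 5.42% held the RBPJ motif, 16.5% the SOX motif and 29.5% the ETS motif. A match therefore describes the letters and does not show binding, which was not tested.

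In the GENCODE M21 annotation of mm10, Gja5 (ENSMUSG00000057123) lies on chromosome 3 from 96904693 to 97077416, and an exon of it overlaps an exon of the protein-coding gene Gpr89 on the opposite strand. Gja4 (ENSMUSG00000050234) lies on chromosome 4 from 127311421 to 127314039 and Efnb2 (ENSMUSG00000001300) on chromosome 8 from 8617434 to 8661242. Dll4 (ENSMUSG00000027314), Jag1 (ENSMUSG00000027276) and Notch1 (ENSMUSG00000026923) are all on chromosome 2, from 119325784 to 119335962, 137081456 to 137116644 and 26457903 to 26516663. Hey1 (ENSMUSG00000040289) is on chromosome 3, Notch4 (ENSMUSG00000015468) on chromosome 17, and Hey2 (ENSMUSG00000019789) and Unc5b (ENSMUSG00000020099) on chromosome 10. Dll4 overlaps 1 antisense transcript by its exons and Notch1 overlaps 2. No source on hand states whether strand was used in counting, and Gja5, Dll4 and Notch1 could therefore hold reads of those partners or have lost reads to them.

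Libraries held 23414255 to 27674831 counts in embryos and 16400137 to 22113787 in yolk sacs, and all 10 genes passed the filter on low counts in both. Setd2 followed the null label in embryos, at 231 ± 2.12 CPM (counts scaled to a common library total; mean ± SD, n = 2) in WT, 163 ± 8.27 in HE and 98.7 ± 7.63 in HO. In null yolk sacs it did not: the libraries labelled WT held 108 ± 8.12 CPM against 117 ± 3.99 in HE, 77.3 ± 2.38 in HO and 184 ± 8.59 in CD WT, so each direction below that rests on null yolk sacs is drawn against libraries labelled WT. In the CD line Setd2 lay between 170 and 255 CPM in every library of both tissues. By Y-linked and Xist transcripts, embryo CD WT libraries were male and CD HO female, and in yolk sac CD WT were female and CD HO male. The CD difference between tissues therefore carries the sex contrast of both. In the null line, WT libraries were female and HO replicate 1 male and replicate 2 female, in both tissues. Yolk sac CD HE replicate 2 held both kinds of transcript. Embryo CD WT replicate 2 stood apart with 10 visceral endoderm genes at a summed 772.7 CPM against 46.2 to 106 in the other embryo WT libraries, and embryo null HO replicate 2 held 98.5 CPM of 10 erythroid genes against 638 to 1673 in the other homozygotes.

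Levels are given below as CPM scaled by edgeR's TMM factors. Changes are on the log2 scale, each with a standard error (SE), and a change is called at a Benjamini-Hochberg adjusted p under 0.05 from edgeR's quasi-likelihood test over all genes tested in the tissue ("edgeR adjusted p"). As the labels do not call replicates separate animals, the spread behind each p-value is that between libraries. In embryo null HO, embryo CD HE, yolk sac null HE and yolk sac null HO the replicates differed in sex by their transcripts. Those were therefore not repeats of the same sample. In groups whose replicates were of the same sex the spread may be technical. In bulk RNA, fewer cells of a type and less of an RNA per cell cannot be told apart.

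Per length, the 10 genes stood in a different order in the 2 tissues. In WT embryos of the null and CD lines Efnb2 was the highest, at 17.5 ± 0.257 and 20.3 ± 1.21 FPKM (FPKM is a count scaled by gene length and library total; n = 2 each). Below it came Jag1 (13.2 and 13.7), Unc5b (11.2 and 14.1), Hey1 (9.33 and 8.09) and Notch1 (6.50 and 6.75). Gja4, Hey2, Gja5, Dll4 and Notch4 lay close together, between 1.89 and 3.49 FPKM in group means, and their order differed between the lines. In yolk sacs labelled WT, Unc5b led at 15.5 ± 0.0621 FPKM in the null line and 13.6 ± 1.44 in the CD line. Gja5 followed at 8.26 ± 1.26 and 5.38 ± 0.485, and Gja4 at 6.50 ± 1.14 and 3.36 ± 0.355. Efnb2 (4.48 and 3.25), Dll4 (3.0 and 2.32), Notch1 (2.98 and 2.36), Notch4 (1.89 and 1.18) and Jag1 (1.82 and 1.39) came next. The target genes were lowest, Hey1 at 0.891 and 0.714 FPKM and Hey2 at 0.439 and 0.214.

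Compared directly, WT yolk sac and WT embryo differed in 9 of the 10 genes in a joint fit over all libraries. The tissues came in separate tables with different styles of column name, so tissue and table cannot be told apart in this comparison. Gja5 (1.72, SE 0.26, edgeR adjusted p = 7.92e-06), Gja4 (0.77), Dll4 (0.59) and Unc5b (0.52) were higher in yolk sac. Hey2 (-3.17, SE 0.34), Hey1 (-3.13, SE 0.15), Jag1 (-2.76, SE 0.18), Efnb2 (-1.99, SE 0.09) and Notch1 (-1.0, SE 0.10) were lower, and Notch4 (-0.17, SE 0.15, edgeR adjusted p = 0.309) was not called. Over all genes tested, 34.2% were called higher and 37.4% lower, so a call between these tissues is common. For comparison, 16 of 18 pan-endothelial markers were called higher in yolk sac and 0 lower, with a median of 0.89 against -0.08 over all genes. With library totals in place of TMM factors the median of all genes moved by -0.32, and the calls of Gja4, Dll4 and Unc5b were lost. Gja4 and Dll4 were also lost with a sex term, and Gja4 without embryo CD WT replicate 2, yolk sac null WT replicate 2 or yolk sac CD WT replicate 2 (0.64 to 0.71).

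In homozygous yolk sacs of both lines the arterial connexin genes fell 7.49- to 99.3-fold, Jag1 and Efnb2 fell less, and the Notch receptors and Dll4 were not called. Against WT, 4 of the 10 genes were called lower in the null line (Gja5, Gja4, Jag1, Efnb2), beside 3.97% of all genes. The same 4 were called lower in the CD line, beside 1.89% of all genes. On the mean of both lines, 6 of 10 were called lower (those 4 with Hey1 and Unc5b), beside 8.9% of all genes, and 0 higher, beside 8.14%. The median change of the 10 genes was -0.62 in the null line, -0.78 in the CD line and -0.70 on the mean, against 0.02, 0.01 and 0.01 over all genes tested. The 10 genes were chosen with earlier results of these data known. These counts and medians therefore describe them and test no excess over all genes.

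**Figure D1:**
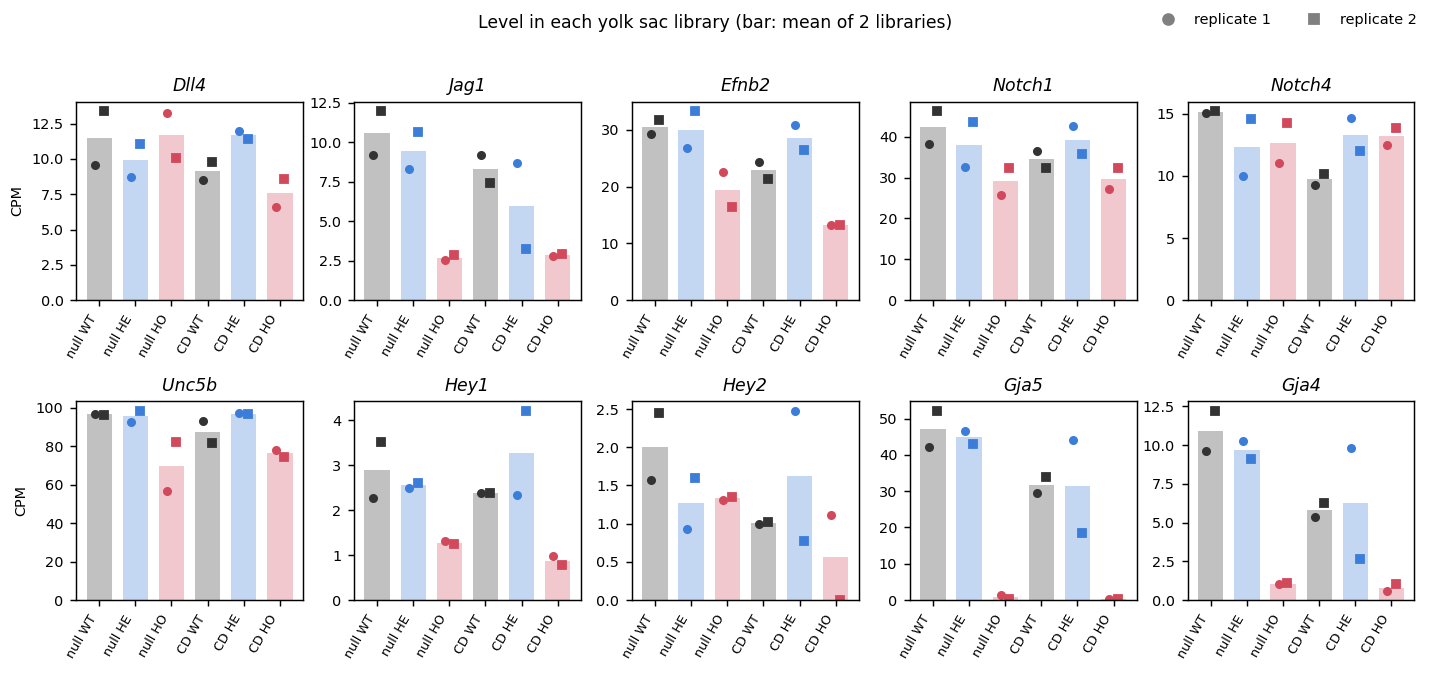
Level of the 10 genes in each yolk sac library, in CPM on linear axes that start at 0; points are libraries and bars are the means of 2 libraries for WT (black), HE (blue) and HO (red) of the null and CD lines. Gja5 lies at 0.239 to 1.26 CPM in the 4 HO libraries and at 29.5 to 52.2 CPM in the 4 libraries labelled WT, while Dll4 and Notch4 overlap between genotypes.

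Gja5 encodes connexin 40, a gap junction protein of arterial endothelium and of the atria. It stood at 42.3 and 52.2 CPM in the null yolk sacs labelled WT, at 46.7 and 43 in HE, and at 1.26 and 0.378 in HO. CD libraries held 29.5 and 33.9 CPM in WT, 44.2 and 18.4 in HE, and 0.372 and 0.239 in HO. Every HO library was thus far below every WT and HE library of both lines, on 27, 7, 8 and 4 counts. The fall was 55.6-fold in the null line (-5.80, SE 0.47, edgeR adjusted p = 9.75e-05) and 99.3-fold in the CD line (-6.63, SE 0.54, edgeR adjusted p = 0.0001), and it was called under all alternatives run, from -7.02 to -5.24. Averaged over the lines it was 74.3-fold (-6.22, 95% interval -6.99 to -5.44, edgeR adjusted p = 2.05e-06).

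Gja4 encodes connexin 37, the other gap junction protein of arterial endothelium, and fell beside Gja5. It stood at 9.59 and 12.2 CPM in the null yolk sacs labelled WT, at 10.3 and 9.12 in HE, and at 1.03 and 1.08 in HO. The CD line gave 5.33 and 6.28 CPM in WT, 9.82 and 2.67 in HE, and 0.558 and 1.02 in HO. The HO libraries lay below all others, with CD HE replicate 2 the nearest. The fall was 10.3-fold in the null line (-3.36, SE 0.51, edgeR adjusted p = 0.00366), 7.49-fold in the CD line (-2.90, SE 0.53, edgeR adjusted p = 0.0173) and 8.78-fold on the mean of both (-3.13, SE 0.37, edgeR adjusted p = 0.000297). The line-specific calls were near the threshold when 1 library was left out. Gja4 lost its call without null HO replicate 1 (-3.34, edgeR adjusted p = 0.0533), and in the CD line without WT replicate 2, HO replicate 1 or HO replicate 2 (-3.38 to -2.51, edgeR adjusted p = 0.0562 to 0.078).

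Of the ligands, Jag1 fell and Dll4 was not called. Jag1, a Jagged-family Notch ligand of endothelium and smooth muscle, stood at 9.19 and 12 CPM in null yolk sacs labelled WT, at 8.29 and 10.6 in HE, and at 2.52 and 2.86 in HO. CD libraries gave 9.17 and 7.4 CPM in WT, 8.65 and 3.24 in HE, and 2.79 and 2.93 in HO. The 4 HO libraries lay at 2.52 to 2.93 CPM, below every other library. Jag1 fell 3.37-fold on the mean of both lines (-1.75, SE 0.27, edgeR adjusted p = 0.00134), called without each library in turn. Within a line the fall was -1.97 (edgeR adjusted p = 0.011) and -1.53 (edgeR adjusted p = 0.049). The null call was lost without WT replicate 2, HO replicate 1 or HO replicate 2 (-2.08 to -1.78), and the CD call without any of its 4 libraries (-1.69 to -1.37). The Jag1 call in the CD line, where WT and HO differ in sex, was also lost with a sex term (-1.26), with size factors in the style of DESeq2, with library totals alone and with a replicate block, and was kept in 3 of 11 alternatives. Dll4, the Delta-family ligand that marks arterial endothelium and sprouting tip cells, ranged over 6.6 to 13.3 CPM in HO and 8.52 to 13.4 CPM in WT, which overlap. Its change was 0.02 (SE 0.23) in the null line and -0.27 (SE 0.24) in the CD line, and -0.12 on the mean with a 95% interval of -0.48 to 0.23.

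Efnb2 encodes ephrin B2, a membrane-bound ligand of arterial endothelium that pairs with EphB4 on veins. It stood at 29.3 and 31.8 CPM in null yolk sacs labelled WT, at 26.7 and 33.3 in HE, and at 22.6 and 16.4 in HO. The CD line held 24.3 and 21.4 CPM in WT, 30.8 and 26.4 in HE, and 13.2 and 13.3 in HO. HO lay below WT within each line, although null HO replicate 1 lay above CD WT replicate 2. The fall was 1.65-fold on the mean of both lines (-0.72, SE 0.13, edgeR adjusted p = 0.00282) and called without each library in turn. In the null line (-0.65, edgeR adjusted p = 0.0486) and the CD line (-0.79, edgeR adjusted p = 0.0375) the call was lost without any of the 4 libraries compared, with values from -0.91 to -0.45 and from -0.89 to -0.69. Efnb2 also lost its call with a sex term in both lines (-0.69 and -0.86), and in the null line with library totals alone (-0.64) and with a replicate block (-0.65).

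By the edgeR test described above, none of the receptors was called in either line alone. Notch1, the main Notch receptor of endothelium, lay at 25.8 to 32.40 CPM in HO and 32.43 to 46.3 in WT, which do not overlap, by a narrow margin. Its change of -0.38 (SE 0.13) on the mean of both lines was not called (edgeR adjusted p = 0.0617), and ranged from -0.47 to -0.11 over the alternatives. Notch1 was called lower in 3 of 15 alternatives for that mean and in 1 of 11 for the null line. Notch4, a receptor found mostly in endothelium, was lower in null HO (11 and 14.3 CPM) than in the null libraries labelled WT (15 and 15.2), at -0.26 (SE 0.21). Notch4 was higher in CD HO (12.5 and 13.9 CPM) than in CD WT (9.27 and 10.2), at 0.44 (SE 0.21). Neither line overlapped and neither change was called, and their mean was 0.09 (95% interval -0.24 to 0.41). Unc5b, a netrin receptor of arteries and tip cells, stood at 96.6 and 96.5 CPM in null yolk sacs labelled WT and 56.9 and 82.3 in HO, and at 93.4 and 81.5 in CD WT and 78.3 and 74.3 in CD HO. It was called lower on the mean of both lines (-0.33, SE 0.10, edgeR adjusted p = 0.0397) but in neither line. That call was lost with a sex term (-0.12), with library totals alone (-0.30) and without null WT replicate 1, null WT replicate 2, null HO replicate 1, CD WT replicate 1 or CD HO replicate 2 (-0.34 to -0.22). For the null line alone Unc5b was called lower in 3 of 11 alternatives.

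The Hey genes, repressors that Notch turns on, had low counts in yolk sac. Hey1 stood at 2.27 and 3.51 CPM in null yolk sacs labelled WT, at 2.5 and 2.6 in HE and at 1.31 and 1.24 in HO. Its CD level was 2.39 in both WT libraries, 2.34 and 4.21 in HE and 0.976 and 0.778 in HO. All 4 HO libraries lay below all others, on 13 to 28 counts. Hey1 fell 2.47-fold on the mean of both lines (-1.30, SE 0.27, edgeR adjusted p = 0.00675), but neither line alone was called (edgeR adjusted p = 0.0821 and 0.0655), and the mean was not called with a sex term (edgeR adjusted p = 0.0673, in a range of 0.000405 to 0.0673 over the alternatives). Hey2 lay at 0.997 to 2.44 CPM in WT and at 1.31, 1.35, 1.12 and 0 in HO. The count of 0 was in CD HO replicate 2, where 3 counts would be 0.179 CPM. Its change of -0.68 had a 95% interval of -1.98 to 0.62, so that no difference was detectable at this depth.

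**Figure D2:**
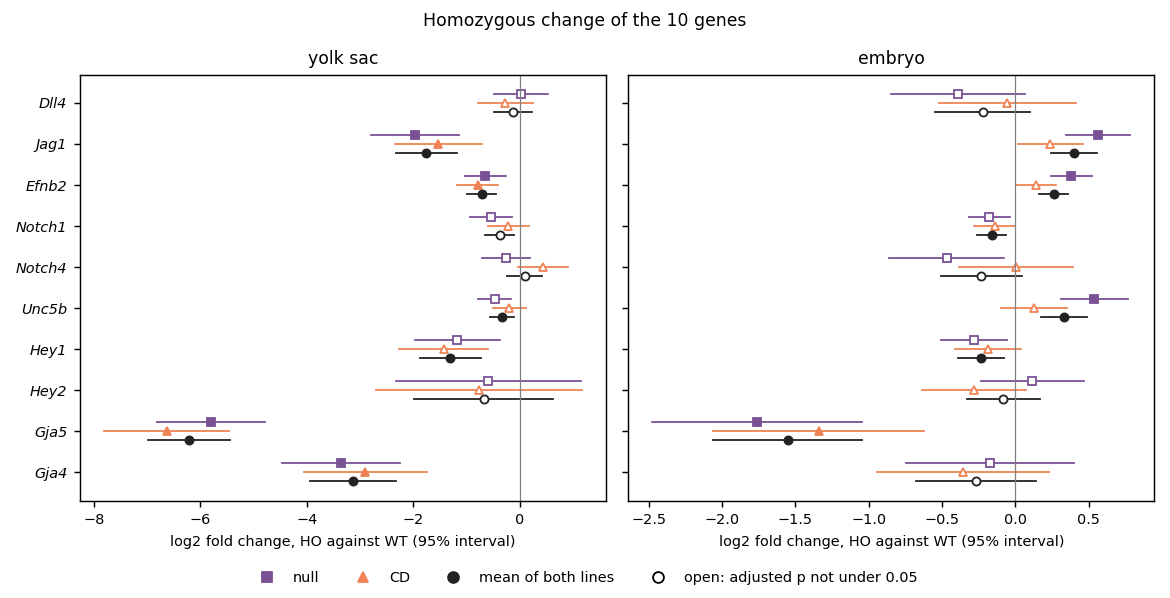
Log2 fold change of HO against WT for each gene in yolk sac (left) and embryo (right), with 95% intervals, for the null line (squares), the CD line (triangles) and the mean of both lines (circles); filled symbols have an adjusted p under 0.05 and the axes differ in range. In yolk sac Gja5 lies at -5.80 and -6.63 and Gja4 at -3.36 and -2.90, while in embryo Jag1, Efnb2 and Unc5b lie above 0 and Gja5 at -1.76 and -1.34.

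Markers shared by arteries and veins gave the following values, beside 8.14% of all genes called higher and 8.9% lower on the mean of both lines. Pecam1, an adhesion protein of all endothelium, changed by -0.06 (SE 0.12, edgeR adjusted p = 0.758) in homozygous yolk sacs on the mean of both lines, and Cdh5, the endothelial cadherin, by -0.03 (SE 0.14, edgeR adjusted p = 0.898). Of 18 pan-endothelial markers 4 were called lower and 0 higher, with a median of -0.24, and the lower ones of smallest p were Plvap (-1.07), Gpr182 (-0.66) and Ramp2 (-0.58). Their summed level was 689 to 850 CPM in HO and 794 to 1126 CPM in WT, and no marker was at 0. Of 12 venous and lymphatic genes 5 were called lower and 0 higher, among them Nr2f2 (-0.75), the transcription factor of venous fate, Stab2 (-0.62) and Vwf (-1.44). Visceral endoderm, the largest other tissue of the yolk sac, had 5 of 10 markers called lower, with a summed level of 26895 to 35560 CPM in HO against 38282 to 42190 in WT. Primitive erythroid genes (0 of 10 called) summed to 12242 to 20485 CPM in HO and 9064 to 28202 in WT. Smooth muscle and pericyte genes (1 higher and 1 lower of 7 tested) summed to 156 to 221 CPM in HO and 167 to 295 in WT. The part of these shifts in the changes of the arterial genes was not tested.

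Counts of a gene as a percent of the pan-endothelial counts of the same library set the 10 genes against the endothelium sampled. Gja5 made up 3.02 to 4.63% of these counts in the 4 libraries labelled WT and 0.0319 to 0.183% in the 4 HO libraries, a mean log2 difference of -6.11 with a replicate SD of 0.77. Gja4 went from 0.546 to 1.08% in WT to 0.0685 to 0.149% in HO, a difference of -2.85 (SD 0.41). Jag1 went from 0.933 to 1.06% to 0.337 to 0.39%, a difference of -1.45 (SD 0.09). Each of these falls exceeded the replicate SD. Hey1 differed by -1.0 (SD 0.23) and Efnb2 by -0.43 (SD 0.28), and Efnb2 in null HO replicate 1 was above every WT library. Dll4 (0.17, SD 0.36), Notch1 (-0.08, SD 0.14) and Unc5b (-0.05, SD 0.13) lay within the spread between replicates, while Notch4 differed by 0.38 (SD 0.20). Against Pecam1 and Cdh5 alone, Gja5 differed by -6.37, Gja4 by -3.11, Jag1 by -1.71, Hey1 by -1.26 and Efnb2 by -0.69. Unc5b moved to -0.31 (SD 0.14) and Notch1 to -0.34 (SD 0.12), while Notch4 (0.12, SD 0.21) and Dll4 (-0.09, SD 0.36) lay within the spread between replicates. No ratio is given for Hey2, which had a count of 0 in CD HO replicate 2.

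**Figure D3:**
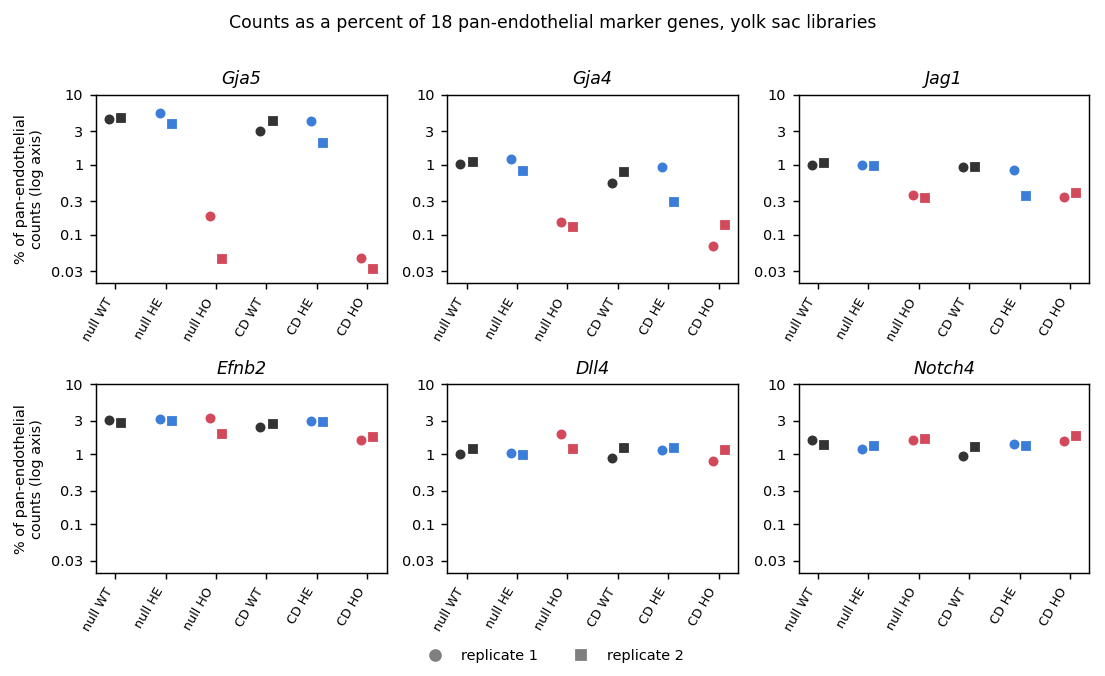
Counts of 6 genes as a percent of the summed counts of 18 pan-endothelial markers in each yolk sac library, on log axes of the same range; points are single libraries of WT (black), HE (blue) and HO (red). Gja5, Gja4 and Jag1 lie lower in all 4 HO libraries than in all 4 WT libraries, whereas Dll4, Notch4 and Efnb2 overlap.

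Heterozygous yolk sacs showed no called change in the 10 genes. Against WT, 0 of 10 were called by edgeR in either line, beside 0% of all genes, 0 had an unadjusted p under 0.05 in either line, and DESeq2 called 0. In the null line Setd2 was near the same level in the libraries labelled WT (108 CPM) and in HE (117 CPM). That comparison may therefore miss a heterozygous effect. Gja5 changed by -0.07 (SE 0.33) in null HE and -0.02 (SE 0.33) in CD HE. CD HE replicate 2, the library with transcripts of both sexes, was low in Gja5 (18.4 CPM against 44.2 in replicate 1), Gja4 (2.67 against 9.82) and Jag1 (3.24 against 8.65), and its Hey1 was the highest of any yolk sac library (4.21). With null HO set against null HE, which avoids the libraries labelled WT, the same 4 genes were called lower, beside 4.42% of all genes: Gja5 (-5.72, SE 0.47), Gja4 (-3.19, SE 0.51), Jag1 (-1.81, SE 0.38) and Efnb2 (-0.62, SE 0.17). This comparison shares its HO libraries with the one against WT. Of these calls Gja5 was kept without each library in turn. Gja4 was lost without null HO replicate 1 (-3.17), Jag1 without HE replicate 2, HO replicate 1 or HO replicate 2 (-1.92 to -1.64) and Efnb2 without any of the 4 (-0.89 to -0.43).

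The homozygous changes of the CD and null yolk sacs were then tested against each other. The difference was called in 0 of 10 genes by edgeR and by DESeq2, beside 0.0282% of all genes, and 1 gene (Notch4, 0.70, SE 0.30) had an unadjusted p under 0.05. For Gja5 the CD effect minus the null effect was -0.84 (95% interval -2.70 to 1.03), for Gja4 0.46 (-1.17 to 2.09), for Jag1 0.44 (-0.71 to 1.59) and for Efnb2 -0.14 (-0.68 to 0.40). These intervals are wide and leave room for differences of 1 log2 unit or more in both connexins and Jag1.

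In homozygous embryos the pattern was another: Gja5 was lower, Jag1, Efnb2 and Unc5b were higher in the null line, and Gja4 was not called. In the null line 3 of 10 genes were called higher, beside 16.2% of all genes, and 1 lower, beside 16.5%. In the CD line 1 was called lower (Gja5), beside 9.14%, and 0 higher, beside 6.92%. On the mean of both lines 3 were called higher (Jag1, Efnb2, Unc5b), beside 19.7% of all genes, and 3 lower (Gja5, Hey1, Notch1), beside 20.1%, so the counts are near the background. Without the 2 embryo libraries that stood apart, an alternative chosen after seeing the data, 8 were called in the null line, beside 32.3% of all genes in either direction, 5 in the CD line, beside 24.3%, and 9 on the mean of both lines, beside 42%.

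**Figure D4:**
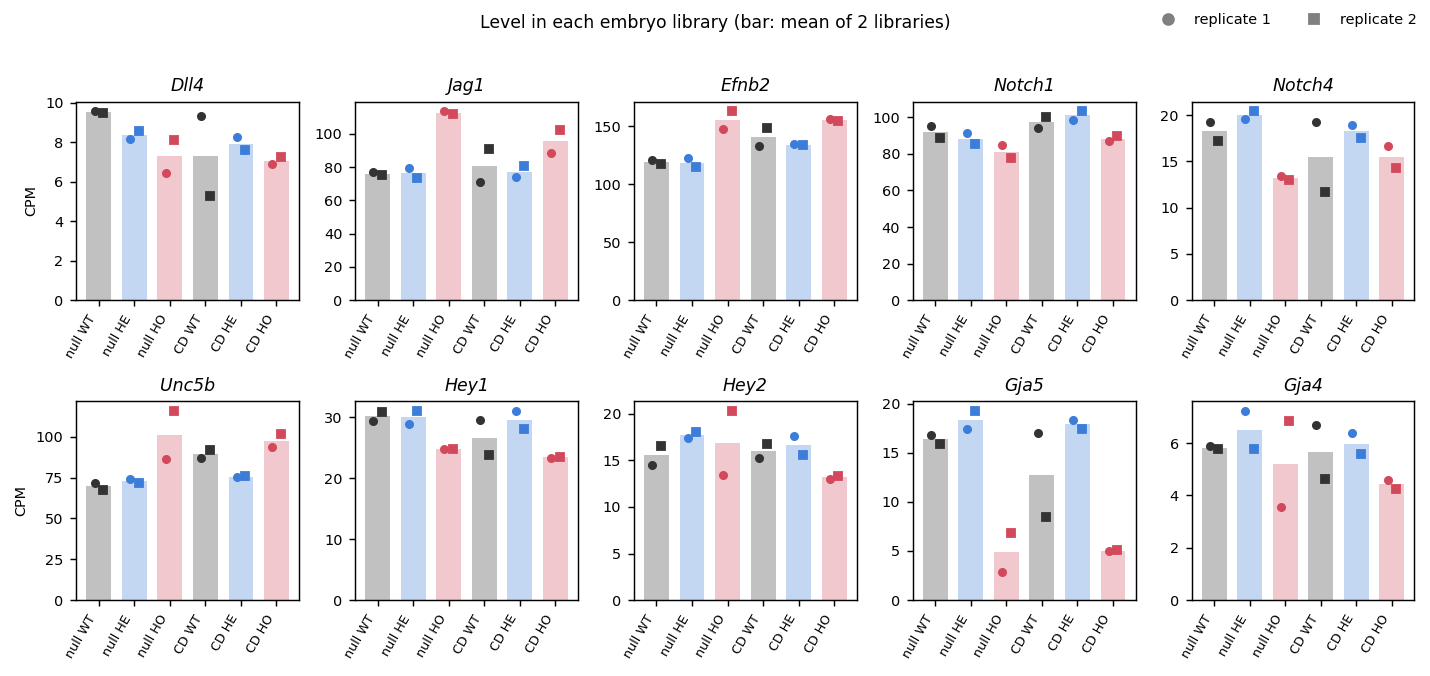
Level of the 10 genes in each embryo library, in CPM on linear axes that start at 0; points are libraries and bars are the means of 2 libraries for WT (black), HE (blue) and HO (red) of the null and CD lines. Gja5 lies at 2.89 to 6.84 CPM in the 4 HO libraries and at 8.5 to 17 CPM in WT, where CD WT replicate 2 is the lowest.

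Gja5 in embryos stood at 16.8 and 15.9 CPM in null WT, 17.4 and 19.3 in null HE, and 2.89 and 6.84 in null HO. The CD line gave 17 and 8.5 CPM in WT, 18.4 and 17.5 in HE, and 4.98 and 5.1 in HO. All 4 HO libraries were below all WT and HE libraries, with CD WT replicate 2 the nearest. Gja5 fell 3.39-fold in the null line (-1.76, SE 0.33, edgeR adjusted p = 0.00177), and this was called without each library in turn, at -2.52 to -1.26. In the CD line it fell 2.53-fold (-1.34, SE 0.33, edgeR adjusted p = 0.0175). The CD call was lost without CD WT replicate 1 (-0.76, edgeR adjusted p = 0.154), CD HO replicate 1 (-1.33) or CD HO replicate 2 (-1.38), and without the 2 libraries that stood apart it was -1.77. Gja4 lay at 3.55 to 6.84 CPM in HO and 4.62 to 6.7 in WT and was not called (-0.17 and -0.36). Without the libraries that stood apart it was called lower in both lines (-0.73 and -0.61).

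Of the ligands, Jag1 stood at 76.9 and 75.4 CPM in null WT and at 114 and 112 in null HO, which do not overlap, and rose 1.48-fold (0.57, SE 0.10, edgeR adjusted p = 0.00133). Its CD values were 70.9 and 90.8 CPM in WT and 88.8 and 102 in HO, which overlap (0.24, SE 0.10, edgeR adjusted p = 0.132). Efnb2 rose from 121 and 117 CPM in null WT to 147 and 163 in null HO (0.38, SE 0.06, edgeR adjusted p = 0.00081), and gave 133 and 149 CPM in CD WT against 156 and 155 in CD HO (0.14, edgeR adjusted p = 0.157). Without the 2 libraries that stood apart both were also called higher in the CD line, Jag1 at 0.42 and Efnb2 at 0.21. Dll4 lay at 9.58 and 9.5 CPM in null WT and 6.44 and 8.14 in null HO, and at 9.35 and 5.29 in CD WT and 6.89 and 7.25 in CD HO. It was not called (-0.39 and -0.05), and without the 2 libraries it was called lower in the null line (-0.58).

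Unc5b rose from 71.7 and 67.5 CPM in null WT to 86.6 and 116 in null HO (0.54, SE 0.10, edgeR adjusted p = 0.00212), with values of 0.30 to 0.73 when 1 library was left out: the lower of these was without null HO replicate 2. CD WT held 87.1 and 92 CPM and CD HO 93.7 and 102 (0.12, not called). Notch1 lay at 95 and 88.4 CPM in null WT, 84.6 and 77.5 in null HO, 94.3 and 99.9 in CD WT and 86.8 and 89.5 in CD HO. It fell on the mean of both lines by 1.12-fold (-0.16, SE 0.05, edgeR adjusted p = 0.0148), a call lost without null WT replicate 1 or CD HO replicate 1 (-0.15 to -0.14). Notch4 lay at 13 to 16.7 CPM in HO and 11.7 to 19.3 in WT and was not called (-0.23, SE 0.13, mean of both lines), where CD WT replicate 2 held the 11.7. In the null line Notch4 in HO (13 and 13.4 CPM) did not overlap WT (17.2 and 19.3), at -0.47 (edgeR adjusted p = 0.0637). Without the 2 libraries that stood apart Notch4 was called lower in the null line (-0.46) and on the mean of both lines (-0.39).

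Hey1, at 29.4 and 30.9 CPM in null WT, 24.8 and 24.9 in null HO, 29.5 and 23.9 in CD WT and 23.4 and 23.5 in CD HO, fell by 1.18-fold on the mean of both lines (-0.23, SE 0.07, edgeR adjusted p = 0.0227). That call was lost without null WT replicate 2, CD WT replicate 1 or CD HO replicate 1 (-0.24 to -0.16). Without the 2 libraries that stood apart Hey1 was called lower in both lines (-0.30 and -0.34). Hey2 lay at 13 to 20.3 CPM in HO and 14.5 to 16.8 in WT, and its change was -0.08 (95% interval -0.33 to 0.17). In heterozygous embryos 0 of 10 genes were called in the null line, beside 0.0104% of all genes, and 0 in the CD line, beside 0.0156%, by edgeR and by DESeq2. An unadjusted p under 0.05 was found for 0 genes in the null line and 1 in the CD line (Unc5b, -0.25). The CD effect minus the null effect was called in 0 of 10 embryo genes by either tool, beside 0.0208% of all genes, with an unadjusted p under 0.05 for 3 (Jag1, -0.33; Efnb2, -0.24; Unc5b, -0.42).

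Markers of several other cell types were called in embryos, where 19.7% of all genes were called higher and 20.1% lower on the mean of both lines. The counts for smooth muscle and pan-endothelial markers are near those shares. In HO on the mean of both lines, 10 of 10 presomitic and somite genes were called lower, with a summed level of 44.1 to 85 CPM against 137 to 179 in WT, and 8 of 12 neural genes lower and 1 higher, at 184 to 308 CPM against 358 to 466. Cardiac muscle genes (5 of 12 higher, 1 lower) summed to 1591 to 2459 CPM in HO and 1499 to 1979 in WT, smooth muscle and pericyte genes (2 of 8 higher, 2 lower) to 487 to 591 CPM in HO and 424 to 507 in WT. Of the pan-endothelial markers 2 of 18 were higher and 5 lower, at 553 to 772 CPM in HO and 585 to 668 in WT, and Pecam1 (-0.16) and Cdh5 (-0.05) were not called. Primitive erythroid genes (0 of 10 higher, 6 lower) summed to 98.5 to 1673 CPM in HO and 1226 to 3182 in WT. Visceral endoderm genes (1 higher and 6 lower of 9 tested) summed to 23.7 to 96.3 CPM in HO and 46.2 to 772.7 in WT, the highest being CD WT replicate 2. No somite, neural, cardiac, smooth muscle or pan-endothelial marker was at 0 in any embryo library. Their part in the changes of Jag1, Efnb2, Unc5b, Notch1 and Hey1, which tissues other than endothelium also express, was not tested.

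The homozygous effect in yolk sac was then tested against that in embryo. As a difference of differences, 5 of 10 genes were called lower in the null line, beside 5.83% of all genes. These were Gja5 (-4.07, SE 0.66), Gja4 (-3.23, SE 0.62), Jag1 (-2.57, SE 0.38), Efnb2 (-1.06, SE 0.18) and Unc5b (-1.05, SE 0.19), each called without each library in turn. In the CD line 4 were called lower, beside 1.15%: Gja5 (-5.30, SE 0.77, edgeR adjusted p = 0.000967), Gja4 (-2.56, SE 0.65, edgeR adjusted p = 0.0409), Jag1 (-1.78, SE 0.38) and Efnb2 (-0.94, SE 0.19). Of the CD calls, Gja5 was kept without each library in turn, while Gja4 was lost without any of the 8 libraries compared (-3.01 to -2.15), with a replicate block (-2.57) and with a sex term (-2.08). Efnb2 was lost with a sex term as well (-0.90). Jag1 was lost without embryo CD WT replicate 1, embryo CD HO replicate 2, yolk sac CD WT replicate 1 or yolk sac CD HO replicate 2 (-1.81 to -1.59). Efnb2 was lost without embryo CD WT replicate 1, embryo CD HO replicate 1, embryo CD HO replicate 2 or yolk sac CD WT replicate 1 (-0.94 to -0.81). Dll4, Notch1, Notch4 and Hey2 were called in neither line, and Hey1 came near it (-0.93 and -1.25, edgeR adjusted p = 0.0701 and 0.052).

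Other genes of the Notch pathway were called in both directions in yolk sac. On the mean of both lines 8.14% of all genes were called higher and 8.9% lower, so single calls in a list say little about it. Of 6 other ligands and receptors 5 were tested there, and 1 was called higher on the mean of both lines: Jag2, the other Jagged-family ligand (1.57, SE 0.25, edgeR adjusted p = 0.00184), also higher in the null line (1.63) and the CD line (1.51), whereas Jag1 fell. Of 18 genes that process or modify the receptors 2 were called higher (Pofut1, 0.44, which adds O-fucose to Notch; Mib1, 0.23, the ubiquitin ligase of Notch ligands) and 4 lower, among them the γ-secretase gene Psenen (-0.50) and the glucosyltransferase gene Poglut1 (-0.39). Of 16 nuclear factors and modulators 1 was called higher (Maml2, 0.54, a co-activator) and 1 lower (Dtx3, -0.44). Of the other 5 targets 3 were tested, and Heyl, a relative of Hey1 and Hey2, was called lower (edgeR adjusted p = 0.0387). It rested on 13, 13, 3 and 1 counts in the null and CD libraries labelled WT and 2, 1, 0 and 0 in HO, too few for a fold. The medians of these 4 lists were 0.03, -0.15, -0.07 and 0.03.

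Among 20 other genes tied to arteries, 18 were tested in yolk sac. Of these 0 were called higher, beside 8.14% of all genes, and 8 lower, beside 8.9%, on the mean of both lines, with a median of -0.46. Those of smallest p were Vegfc (-2.49, SE 0.19, edgeR adjusted p = 1.96e-05), a ligand of the VEGF receptors, Depp1 (-2.0, SE 0.18) and Tmem100 (-3.41, SE 0.45), a membrane protein of arterial endothelium downstream of ALK1. In the CD line Vegfc (-2.55), Tmem100 (-2.95) and the transcription factor gene Mecom (-1.76) were called lower, and in the null line Depp1 (-3.02), Vegfc (-2.43) and Tmem100 (-3.87), with Epas1, a hypoxia-inducible factor, higher (0.62).

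In embryos genes of the same lists were called in both directions. On the mean of both lines 19.7% of all genes were called higher and 20.1% lower, so a call is common there. Of the 6 other ligands and receptors, Dlk1 (0.62), Notch2 (0.29) and Jag2 (0.50) were called higher on the mean of both lines and Dll1 (-0.89, SE 0.06, edgeR adjusted p = 5.01e-07) and Dll3 (-1.05), ligands of the somites and neural tube, lower. Of the 5 other targets Hes1 (0.29) was called higher and Heyl (-1.93), Hes5 (-1.32), a target in neural progenitors, and Nrarp (-0.69) lower. The processing genes had 3 called higher and 8 lower, among them Neurl1a (0.79), Furin (0.32) and Ncstn (0.15) higher and Poglut1 (-0.63), Adam10 (-0.24), a protease that cuts Notch, and Mfng (-1.06) lower. The nuclear factors had 3 higher and 5 lower, among them Maml1 (0.15) and Dtx1 (0.53) higher and Maml2 (-0.39), Numbl (-0.38) and Dtx4 (-0.47) lower. Of the other arterial genes 7 were called higher, among them Alpl (0.80), Ephb2 (0.42) and Epas1 (0.50), and 5 lower, among them the forkhead genes Foxc1 (-0.80) and Foxc2 (-0.92) and Mecom (-0.91). Of the venous and lymphatic genes 2 were higher, Flt4 (0.31) and Tspan18 (0.19), and 4 lower, among them Ephb4 (-0.34), the receptor that pairs with Efnb2, Emcn (-1.0) and Nr2f2 (-0.75).

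**Figure D5:**
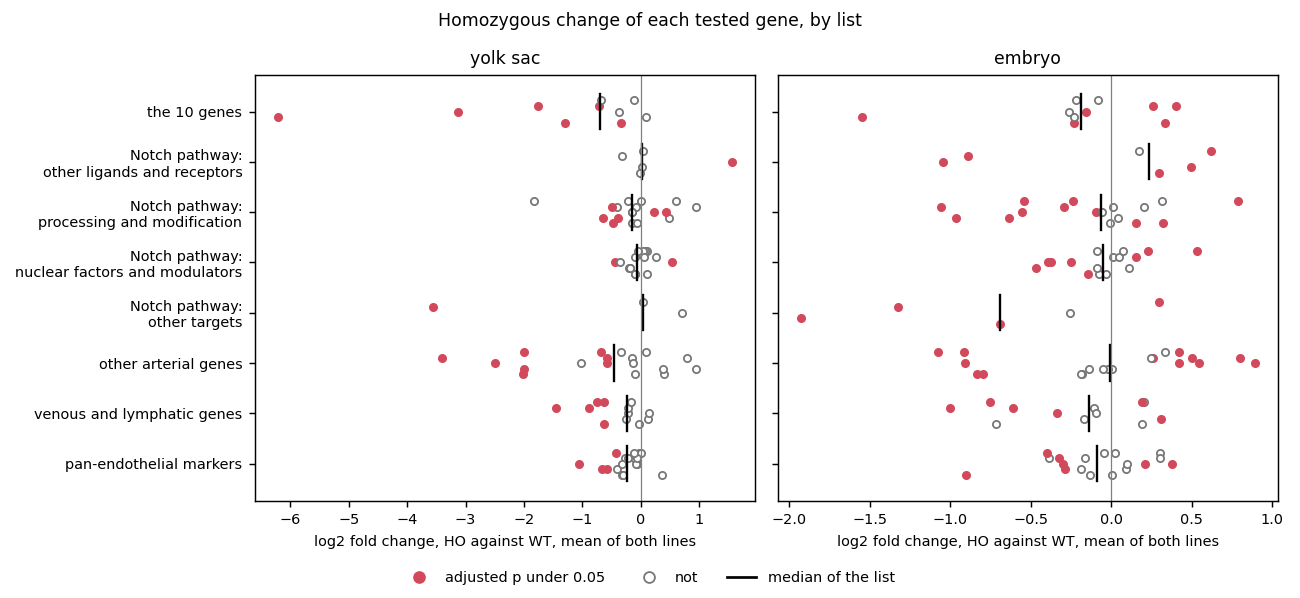
Log2 fold change of HO against WT on the mean of both lines for each tested gene, by list, in yolk sac (left) and embryo (right); red points have an adjusted p under 0.05, open points do not, and the black bar is the list's median. In yolk sac the 10 genes have a median of -0.70 and the pan-endothelial markers -0.24, and in embryo both lists spread to either side of 0.

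For 1 gene of each role the genes of most like pattern were taken from 13134 genes tested in both tissues, by Pearson's coefficient over the 12 group means centred within tissue. This is a description: the group means share libraries and depth. For the connexin gene Gja5 these were Tcim (0.992), Kctd5 (0.99) and Mydgf (0.986). For the receptor gene Notch1 they were Nab2 (0.958), Ptprs (0.958) and Litaf (0.955). For the target gene Hey2 they were Lsm5 (0.925), Cpne4 (0.923) and Mmp25 (0.912), and for the ligand gene Dll4 Brsk1 (0.903), Ccdc39 (0.886) and Fbxo48 (0.864). None of them is in the lists used here.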

How the data were processed

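Messenger RNA libraries (KAPA mRNA HyperPrep, NovaSeq6000, per the labels' protocols) came as 2 deposited tables, 1 per tissue, each with raw counts per gene and FPKM made by the authors. The deposited counts are whole reads per gene, and the authors' FPKM equal count over length and library total in every value, within a relative tolerance of 0.001. The submitters' processing notes name fastp 0.22.0, HISAT2 2.2.1, featureCounts 2.0.1, DESeq2 1.32.0 and mm10, with no strand setting, rule for multi-mapping reads or annotation release on record here.

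Counts were tested with edgeR 4.0.16 (R 4.3.3): TMM factors, filterByExpr with a minimum count of 10 and total of 15, and the quasi-likelihood F-test on 12 libraries and 6 groups per tissue, or on all 24 libraries for comparisons between tissues. Genes tested numbered 19215 in embryo, 17755 in yolk sac and 20543 jointly. P-values were adjusted over all of them by Benjamini-Hochberg, with a threshold of 0.05. Standard errors come from the F statistic, and FPKM served only to rank genes. No 2 replicates agreed within sampling noise. The scripts were tested on simulated data. Alternatives were DESeq2 1.42.0, other scalings, no filter, a replicate block, each library left out and a sex term. Leaving out libraries that stood apart (2 in embryo, 1 in yolk sac) was added after seeing the data.

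The 10 genes and all lists were chosen with earlier results of these data known. All 10 are named whatever their values. From other lists up to 3 called genes of smallest p in each direction are named per homozygous comparison, and Setd2 checks the labels. Some listed genes are counted but not reported here by name.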

Additional observations from a re-analysis of the deposited data

Results flagged for a closer look

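The homozygous effect differed between yolk sac and embryo in 5 genes of the null line, by the test of that difference in the joint edgeR fit. On the log2 scale, yolk sac minus embryo, it was -4.07 for Gja5, -3.23 for Gja4, -2.57 for Jag1, -1.06 for Efnb2 and -1.05 for Unc5b (edgeR adjusted p from 0.000435 for Jag1 to 0.00306 for Gja4). In the CD line it was -5.30 for Gja5, -2.56 for Gja4, -1.78 for Jag1 and -0.94 for Efnb2 (edgeR adjusted p from 0.000967 for Gja5 to 0.0409 for Gja4). Of these CD calls only Gja5 was kept without each library in turn, and Gja4 and Efnb2 were lost with a sex term. Jag1 and Efnb2 lay above WT in null embryos and below it in null yolk sacs, and Gja5 lay below WT in both tissues.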

How the results depend on the processing

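Of 2000 recomputed changes of the 10 genes, 1757 kept their direction and side of the threshold, 80 lost a call, 62 gained one, 101 changed sign without a call and 0 reversed a call. Without the filter on low counts the number of genes called was 7 instead of 4 in null HO embryos, 2 instead of 1 in CD HO embryos, and 1 instead of 0 both in CD HE embryos and for the CD minus null effect in embryos. With a sex term it was 2 in CD HO embryos, 2 instead of 4 in CD HO yolk sacs and 2 instead of 4 for the CD difference between tissues. Without the 2 embryo libraries that stood apart it was 8 in null HO and 5 in CD HO. Leaving out 1 library at a time gave 0 to 3 genes in CD HO embryos, 0 to 1 in CD HE embryos, 0 to 2 for the CD minus null effect in embryos, 1 to 4 in null HO yolk sacs, 1 to 4 in CD HO yolk sacs, 1 to 4 for null HO against HE, and 1 to 4 for the CD difference between tissues. The cause was not tested. DESeq2 called 5 genes in null HO embryos, 5 in null HO yolk sacs, 5 for null HO against HE, 7 on the yolk sac mean of both lines, and 6 and 5 for the null and CD differences between tissues, each 1 more than edgeR, and the edgeR number elsewhere. With library totals alone the share of higher calls among all calls went from 40.2% to 55.3% in CD HO yolk sacs, from 42.3% to 55.3% for the null and from 60.9% to 72.2% for the CD difference between tissues, and from 47.7% to 34.6% for WT yolk sac against WT embryo.

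Within a tissue, replicate numbers did not pair the samples: deviations of same-numbered libraries correlated at -0.114 to 0.0778 over 15 pairs of groups in embryo and -0.122 to 0.175 in yolk sac, 1 of them above 0.1. Pairing of embryo with yolk sac libraries was not tested. With the replicate number as a block, 5 genes were called in null HO embryos and 3 each in null HO and CD HO yolk sacs, for null HO against HE and for the CD difference between tissues. Other counts were as without the block. With 2 libraries a group, the precision of genes near the limit of detection, such as Hey2 in yolk sac, is low.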
